A study of Homo sapiens with 6 samples.

Results

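The insulin-like growth factor (IGF) axis consists here of 10 genes chosen by symbol: the ligands IGF1 and IGF2, the receptors IGF1R and IGF2R, and the binding proteins IGFBP1 to IGFBP6. A probe set carrying the gene's symbol alone was found for 8 of the 10, and IGF2 and IGFBP2 were not analysed here. These 8 are 8 of the 14884 genes measured. Each had a single probe set of this kind, so no choice between probe sets was needed, and all 8 were tested without a filter on low values.

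The data are 6 arrays of U-87 MG, a long-established glioblastoma line of human origin whose distributed stock is known to differ from the original tumour. The exposed group is 3 arrays of cells kept for 54 h without a break in RGFIELDS, electromagnetic fields aimed at hsa-miRNA-381, mutated alpha-kinase 2, HSP70 and CHI3L1, in a culture box inside a Faraday chamber. The unexposed group is 3 arrays of cells in a control box outside the chamber. All dishes held the same medium with fetal bovine serum, which itself carries IGFs and their binding proteins, and were allocated at random 24 h after seeding. The series describes the arrays of each group as independent biological replicates. The titles and source names give these groups, while the description of the exposed samples contains both the words exposed and control. Every difference below is one of field, box and Faraday chamber together, and these cannot be told apart.

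IGF1 and IGF2 are small secreted hormones that signal growth and survival through IGF1R, a receptor tyrosine kinase that recruits the IRS adaptors and switches on the PI3K-AKT and RAS-MAPK arms. IGF2R has no kinase activity. It takes IGF2 up for breakdown and carries lysosomal enzymes tagged with mannose 6-phosphate. The binding proteins hold IGFs outside the cell, which can block or prolong their action, and proteases such as PAPPA release them again. In glioblastoma the axis is known mainly for IGF1R signalling and for IGFBP2.

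Values are log2 expression values from RMA, a method that corrects background, makes arrays alike and summarises each probe set. A difference is exposed minus unexposed on that scale, and its standard error (SE), 95% interval and p come from limma fitted over all probe sets. A gene passed where its Benjamini-Hochberg adjusted p over all 14884 genes was under 0.05. Array medians lay between 3.96 and 3.99, and precision is limited by the number of arrays. Values of different genes come from different probes and are not compared with each other.

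Of the 8 genes, IGFBP1 fell in exposed cells, while none of the other 7 passed. The background was 3.06% of all genes past the threshold, 1.67% lower and 1.40% higher in exposed cells. The differences had both signs, 4 positive and 4 negative. Their median was 0.09, beside 0.0029 over all genes. Exposed and unexposed values did not overlap for 4 of the 8, namely IGFBP1, IGFBP3, IGFBP5 and IGFBP6, beside 27.0% of all genes (13.8% with exposed cells below and 13.2% with exposed cells above). At an unadjusted p under 0.05 there were 5 of the 8, these 4 and IGF2R, beside 18.9% of all genes.

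**Figure D1:**
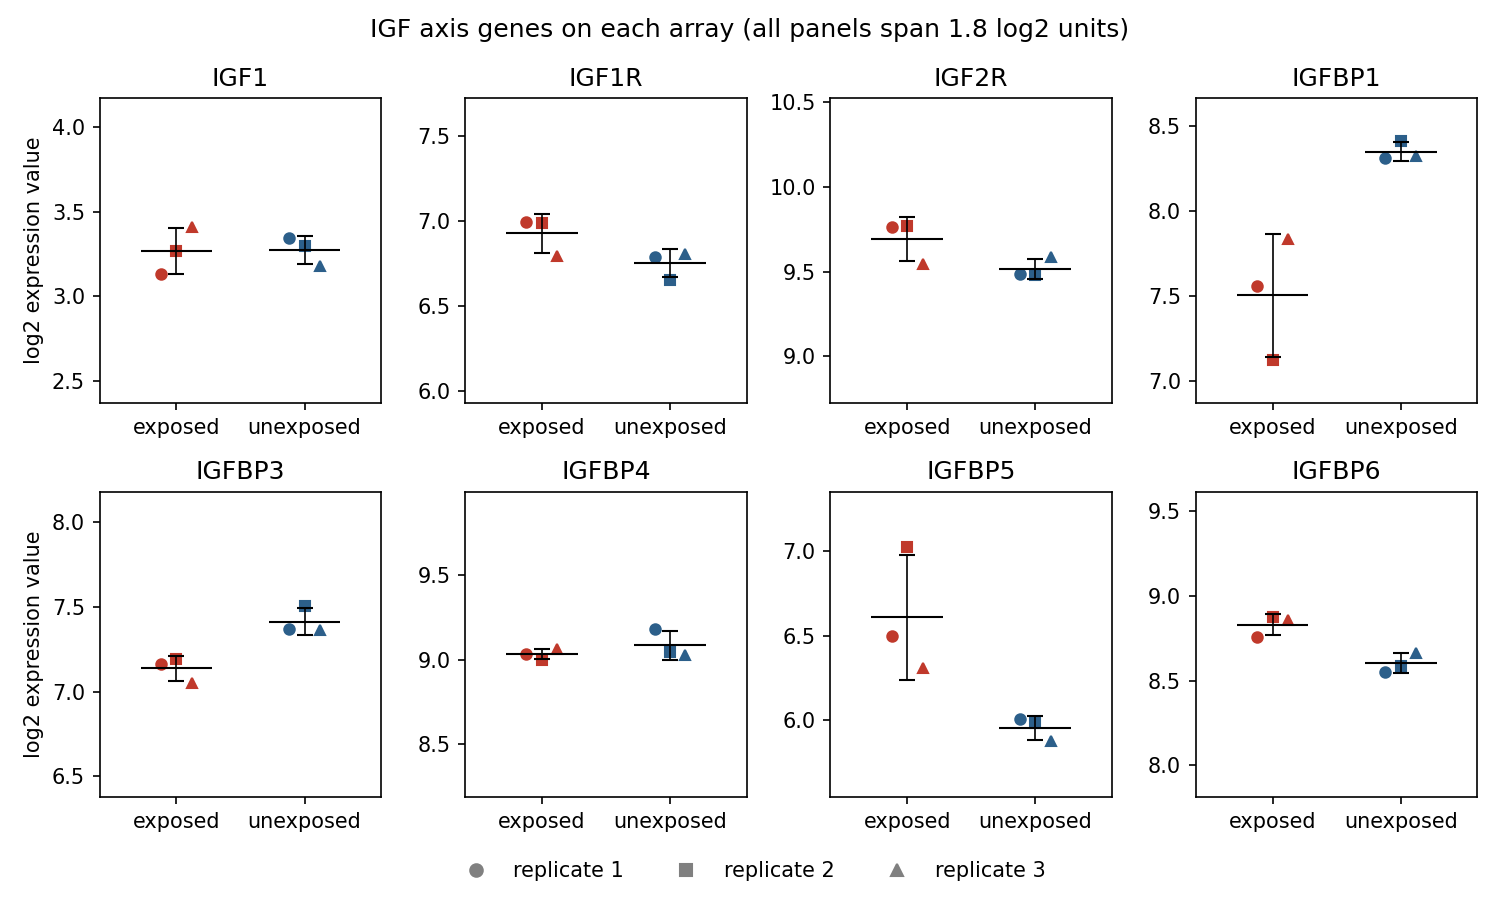
Log2 expression value (vertical axis, every panel spanning the same number of log2 units) of the 8 measured IGF axis genes in exposed (left, red) and unexposed cells (right, blue). Symbols are single arrays by replicate number, and black lines are the mean ± SD of 3 arrays; the groups do not overlap for IGFBP1, IGFBP3, IGFBP5 and IGFBP6, and the exposed arrays of IGFBP1 and IGFBP5 lie far apart from each other.

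IGF1, a ligand of IGF1R, gave a dim signal below the array medians in both groups. It was at 3.13, 3.27 and 3.41 in exposed cells, against 3.34, 3.29 and 3.18 in unexposed cells. The groups overlapped throughout. The difference was -0.0037 (interval -0.33 to 0.32, limma adjusted p = 0.995), and its sign turned with single arrays left out and when arrays were centred on ribosomal protein genes.

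IGF1R, the signalling receptor, was at 7.00, 6.99 and 6.80 in exposed cells, against 6.79, 6.66 and 6.81 in unexposed cells. Exposed replicates 1 and 2 stood above every unexposed array, while exposed replicate 3 lay among them. The difference was 0.18 (SE 0.09, interval -0.03 to 0.38), with a limma adjusted p of 0.337. At the ends of that interval the exposed level would lie slightly below the unexposed level or 0.38 above it on the log2 scale. With single arrays left out the difference ranged from 0.13 to 0.24.

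IGF2R, the clearance and mannose 6-phosphate receptor, was at 9.77, 9.77 and 9.54 in exposed cells, against 9.49, 9.48 and 9.59 in unexposed cells. As for IGF1R, exposed replicates 1 and 2 were the highest arrays and exposed replicate 3 lay among the unexposed ones. The difference was 0.18 (SE 0.08, interval 0.00062 to 0.35), with a limma adjusted p of 0.263. The 2 receptors followed each other over the arrays, with a Pearson correlation of 0.952 over the 6 arrays and 0.897 after each group's mean was removed. These correlations are descriptions over arrays that share their preparation and normalization.

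IGFBP1, a secreted carrier whose gene in liver is switched off by insulin and on by fasting and stress, was the member that fell. It was at 7.56, 7.12 and 7.84 in exposed cells, against 8.31, 8.42 and 8.33 in unexposed cells. Every exposed array lay below every unexposed array. The exposed arrays covered a range of 0.72 and the unexposed arrays one of 0.10, with means of 7.50 ± 0.36 and 8.35 ± 0.06 (SD, n = 3 each). The difference was -0.85 (SE 0.16, interval -1.22 to -0.47), so that exposed cells had 0.556 times the unexposed level (limma adjusted p = 0.0399). It was the gene with rank 19 from the lowest difference among all 14884, and with rank 318 by p in limma. The spread of the exposed arrays was set by exposed replicate 2, the lowest, and exposed replicate 3, the highest. Without exposed replicate 2 the difference was -0.65 (limma adjusted p = 0.105), and without exposed replicate 3 it was -1.01 (limma adjusted p = 0.0294). The call held in the second of these and was lost without any one of the other 5 arrays, with limma adjusted p between 0.0764 and 0.132, while the difference stayed between -1.01 and -0.65. Without exposed replicate 1 or 2, or unexposed replicate 2 or 3, 0 of all genes passed, so no gene could keep a call there. Without unexposed replicate 1, 67 of all genes passed. The unadjusted limma p of IGFBP1 was 0.000368 without exposed replicate 2, beside 0.000852 with all arrays. Adjusted over all 53617 probe sets in place of genes, the adjusted p in limma was 0.0652, where 0.705% of probe sets passed.

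**Figure D2:**
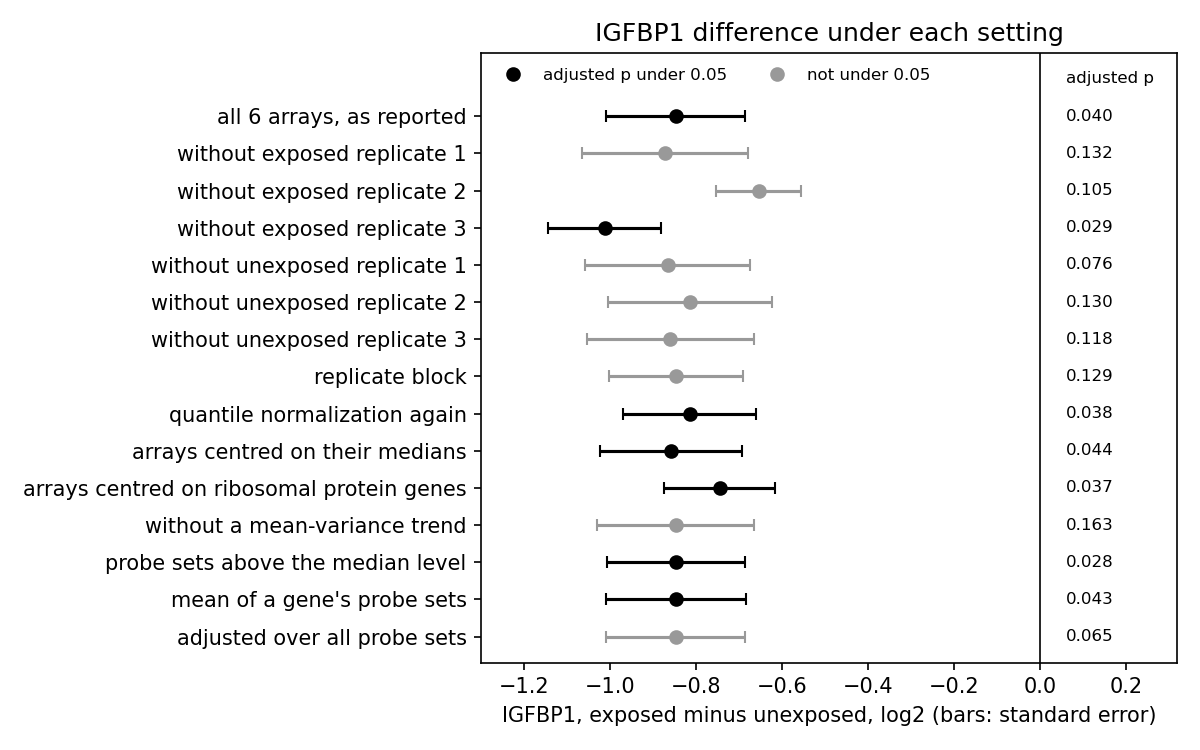
IGFBP1 difference, exposed minus unexposed (log2, horizontal axis; bars are the standard error), with all arrays and under each alternative, with limma's adjusted p at the right. All 15 values lie between -1.01 and -0.65, black points have an adjusted p under 0.05 and grey points do not.

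IGFBP3, the main carrier of IGFs in blood, is the direct neighbour of IGFBP1 on chromosome 7, with 0 annotated genes between them. It was at 7.16, 7.20 and 7.05 in exposed cells, against 7.37, 7.51 and 7.36 in unexposed cells. All exposed arrays lay below all unexposed arrays, and the spread was alike in both groups. The difference was -0.28 (SE 0.08, interval -0.45 to -0.10, limma adjusted p = 0.0989) and did not pass. The correlation of the neighbours was 0.719 over the 6 arrays and -0.499 after each group's mean was removed. Exposed replicate 2, the lowest array for IGFBP1, was the highest exposed array for IGFBP3.

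IGFBP5, a carrier that binds extracellular matrix, had a positive difference. It was at 6.50, 7.02 and 6.31 in exposed cells, against 6.01, 5.99 and 5.88 in unexposed cells. Every exposed array lay above every unexposed array, and exposed replicate 2 was the highest. Means ± SD of 3 arrays were 6.61 ± 0.37 for exposed cells and 5.96 ± 0.07 for unexposed cells. The difference was 0.65 (SE 0.17, interval 0.26 to 1.05), or 1.57-fold, with a limma adjusted p of 0.0854. Without exposed replicate 2 it was 0.45, the lowest value with an array left out, and without exposed replicate 3 it was 0.80, the highest.

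IGFBP1 and IGFBP5 ran opposite to each other over the exposed arrays. These ranked replicate 2, 1 and 3 from lowest to highest for IGFBP1, and the same arrays ranked from highest to lowest for IGFBP5. The unexposed arrays, which lay close together for both genes, did not keep this order: IGFBP1 and IGFBP5 were both higher in unexposed replicate 2 than in unexposed replicate 3. The correlation was -0.981 over the 6 arrays and -0.954 after group means were removed. It describes 6 arrays that share their preparation and normalization. This pair and that of IGF1R with IGF2R had the strongest correlations, of either sign, among all pairs of the 8 measured members. Both are therefore extremes of many pairs.

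**Figure D3:**
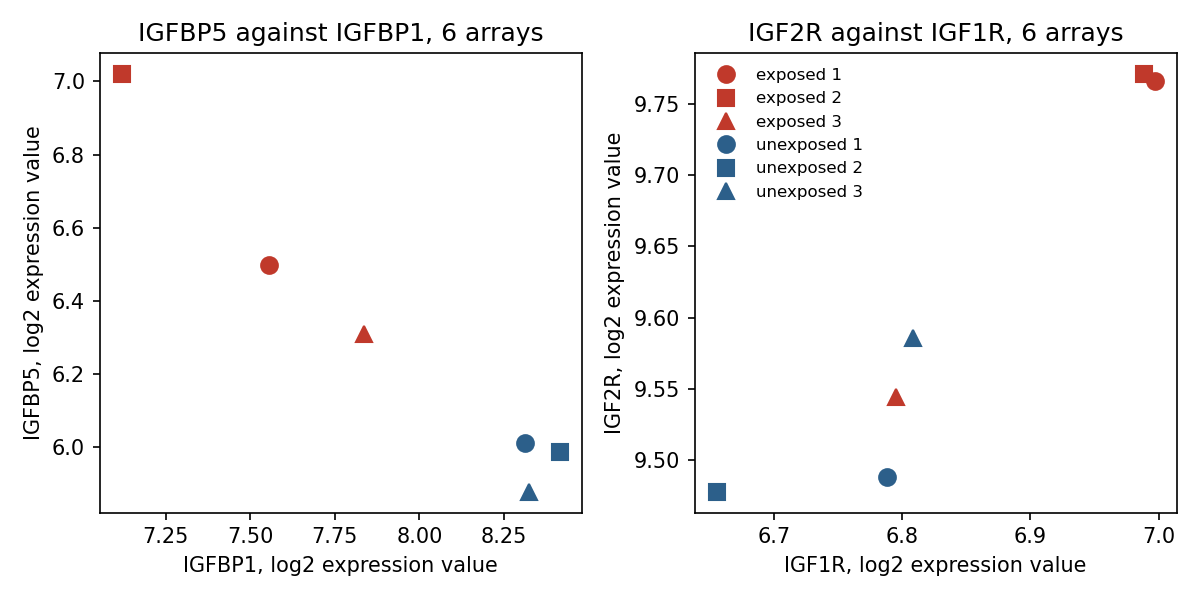
Left, IGFBP5 against IGFBP1; right, IGF2R against IGF1R (log2 expression values on both axes), with a point for each of the 6 arrays, exposed in red and unexposed in blue. The correlation of IGFBP5 with IGFBP1 is -0.981, with the exposed arrays spread out in opposite order and the unexposed arrays close together, and exposed replicates 1 and 2 stand apart at high IGF1R and IGF2R while exposed replicate 3 lies among the unexposed arrays.

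IGFBP6, which prefers IGF2 as its ligand, was at 8.76, 8.88 and 8.86 in exposed cells, against 8.55, 8.59 and 8.67 in unexposed cells. All exposed arrays lay above all unexposed arrays by a small margin. The difference was 0.23 (SE 0.06, interval 0.08 to 0.38, limma adjusted p = 0.0970) and did not pass. IGFBP4, the carrier that PAPPA cleaves, was at 9.04, 9.00 and 9.06 in exposed cells, against 9.18, 9.04 and 9.03 in unexposed cells. Its groups overlapped, and its difference of -0.05 (interval -0.20 to 0.09, limma adjusted p = 0.733) became 0.05 with arrays centred on ribosomal protein genes.

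**Figure D4:**
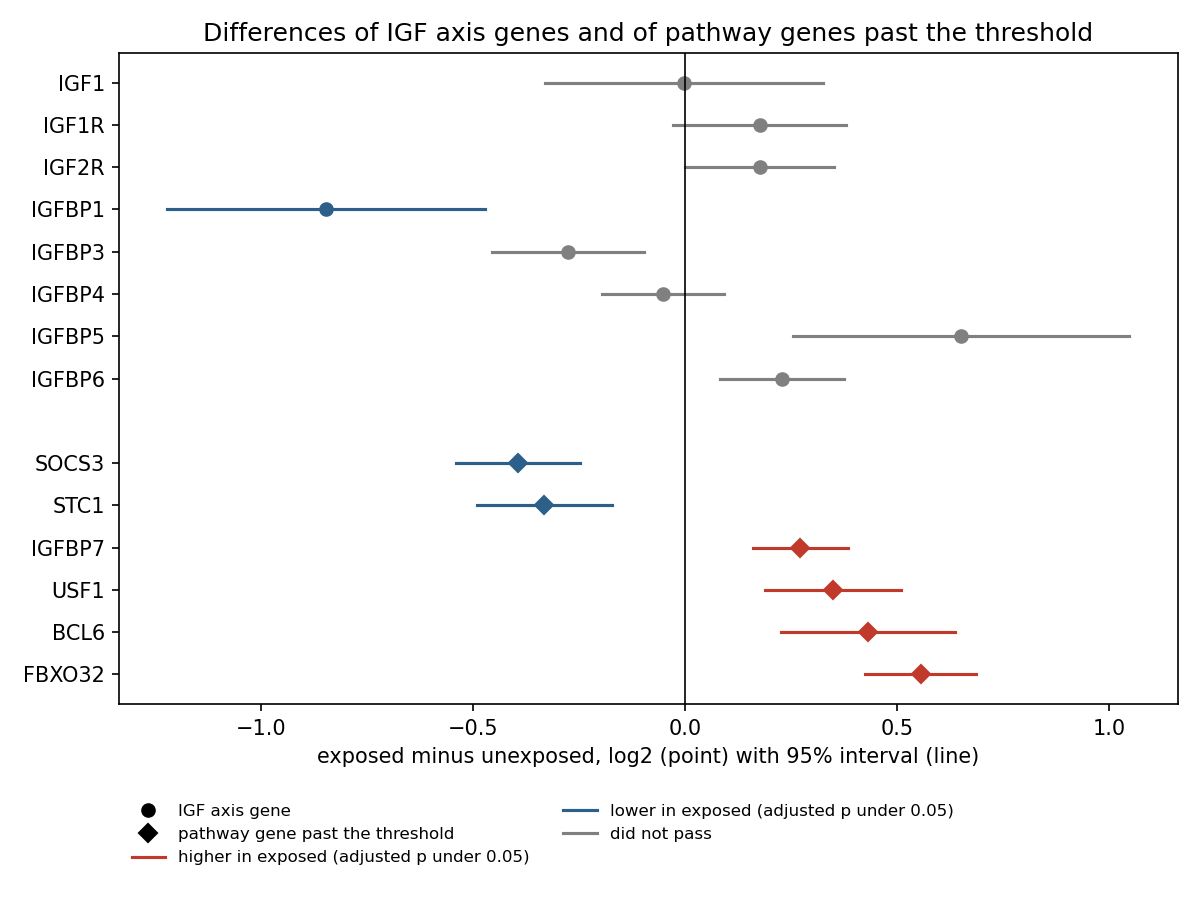
Difference, exposed minus unexposed (log2, horizontal axis; points with 95% intervals as lines), of the 8 IGF axis genes (circles) and of the 6 pathway genes past the threshold (diamonds). IGFBP1 lies lowest at -0.85 and IGFBP5 highest at 0.65, and among the circles only IGFBP1 is coloured as past the threshold.

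The promoters of the measured members were compared for letters near their starts. RefSeq windows of 300 bases on GRCh38.p14, reaching from 250 bases before the annotated start, matched 7 of the 8 genes by symbol, and IGFBP1 was not among them. Those of IGFBP3, IGFBP5 and IGF2R are shown as examples, each with letters that it holds marked. IGFBP3 and IGFBP5 had differences of opposite sign, but so had IGFBP4 and IGFBP6, and IGF1R also had a window. None of the genes shown passed the threshold. Capitals mark TATATA in IGFBP3 (chr7:45921223-45921522, minus strand), TTTAAA in IGFBP5 (chr2:216695500-216695799, minus strand) and CACGTG in IGF2R (chr6:159968832-159969131, plus strand).
IGFBP3: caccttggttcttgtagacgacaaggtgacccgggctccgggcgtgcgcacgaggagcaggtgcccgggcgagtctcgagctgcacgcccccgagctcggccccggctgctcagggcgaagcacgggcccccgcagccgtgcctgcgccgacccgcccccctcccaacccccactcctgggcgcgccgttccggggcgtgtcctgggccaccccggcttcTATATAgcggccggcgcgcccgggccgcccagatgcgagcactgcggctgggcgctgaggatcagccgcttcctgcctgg
IGFBP5: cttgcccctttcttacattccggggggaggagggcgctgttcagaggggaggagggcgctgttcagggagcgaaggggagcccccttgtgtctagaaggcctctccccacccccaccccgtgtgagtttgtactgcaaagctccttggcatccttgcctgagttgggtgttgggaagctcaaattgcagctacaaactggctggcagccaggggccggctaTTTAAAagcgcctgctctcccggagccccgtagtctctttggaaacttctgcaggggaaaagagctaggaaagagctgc
IGF2R: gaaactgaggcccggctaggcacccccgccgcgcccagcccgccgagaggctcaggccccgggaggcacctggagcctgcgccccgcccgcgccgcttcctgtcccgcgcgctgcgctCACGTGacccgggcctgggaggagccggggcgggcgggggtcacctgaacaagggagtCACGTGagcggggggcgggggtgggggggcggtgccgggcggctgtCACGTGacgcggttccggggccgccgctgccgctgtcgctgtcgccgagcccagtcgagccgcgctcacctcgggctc

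Letters resembling a TATA box, the element that positions transcription at many regulated genes, were searched as TATAAA, its variant TATATA and the letters TTTAAA on both strands. These can overlap each other, but each member's window held at most 1 of them. IGFBP3 held TATATA at -30 to -25 counted from the start as 0, IGFBP5 held TTTAAA at -29 to -24, and IGFBP4 held TATAAA at -29 to -24. Of all 35116 windows, 4.80% held any of these letters starting 35 to 20 bases before the start. The windows of IGF1R, IGF2R, IGFBP6 and IGF1 held none of them anywhere, and 22.6% of all windows did hold one. G and C made up 79.7% of the IGF1R window, 78.7% of that of IGF2R, 74.7% of that of IGFBP3 and 74.0% of that of IGFBP4, beside a median of 58.7% over all windows. The windows of IGFBP6 and IGFBP5 were nearer that median, at 61.7% and 59.0%, and both windows of IGF1 were below it, at 43.7% and 42.3%. The IGF2R window held CACGTG, the E-box bound by USF1 and related factors, 3 times, and 7.26% of all windows held it at all. CAAAACA, letters found in insulin-responsive elements, was in none of the members' windows and in 4.92% of all windows. IGFBP1 had no window and was not searched for it. GGGCGG, bound by the general factor SP1, was in the windows of IGF1R, IGF2R, IGFBP3, IGFBP4 and IGFBP6 and in 45.0% of all windows. A pair of its matches overlapped in the IGF2R window.

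Around the members, 13 lists of pathway genes with 146 entries were examined, of which 84 were measured. Of these 84, 4 rose, 2 fell and 78 did not pass, beside 3.06% of all genes past the threshold. Their median difference was 0.04, beside 0.0029 over all genes, and 36 of 84 had values that did not overlap between groups, beside 27.0% of all genes. At an unadjusted p under 0.05 in limma there were 24 of the 84, beside 18.9% of all genes. The 6 that passed were IGFBP7, FBXO32, BCL6, USF1, STC1 and SOCS3. The count of 6 was 4 without exposed replicate 3, 1 without unexposed replicate 1 and 0 without any other array. Without any of those other arrays 0 of all genes passed.

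Among receptor relatives and further carriers, 4 of 6 were measured and 1 rose, beside 3.06% of all genes past the threshold. This 1 was also the only one at an unadjusted p under 0.05, beside 18.9% of all genes. IGFBP7, a secreted relative that binds IGFs weakly and is abundant in blood vessels, was at 10.2, 10.3 and 10.3 in exposed cells, against 10.0, 10.0 and 9.98 in unexposed cells. The groups were clearly separate and the spread small. The difference was 0.27 (SE 0.05, 1.21-fold, limma adjusted p = 0.0336). INSR, the insulin receptor, had a difference of -0.17 (limma adjusted p = 0.508). IGFBPL1 and the orphan receptor INSRR were near the array medians, with differences of 0.31 and 0.07 that did not pass.

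Among proteases that cleave binding proteins and their inhibitors, 8 of 11 were measured. Of the 8, 1 fell and 7 did not pass, beside 3.06% of all genes past the threshold. At an unadjusted p under 0.05 in limma there were 2 of the 8, beside 18.9% of all genes. PAPPA itself, ADAMTS1 and MMP2 were not measured. STC1, a secreted glycoprotein that inhibits PAPPA, was at 11.5, 11.4 and 11.7 in exposed cells, against 11.9, 11.8 and 11.8 in unexposed cells. All exposed arrays lay below all unexposed arrays. The difference was -0.33 (SE 0.07, interval -0.49 to -0.17, limma adjusted p = 0.0475). Its relative STC2 had a difference of -0.15 and the metalloprotease ADAM9 one of -0.22, and neither passed. HTRA3, PAPPA2 and ADAM12 were at 0.20, 0.19 and -0.11, and the protease HTRA1 was at -0.0053.

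In the list of factors that act on receptor turnover and signal strength, 3 of 12 were measured, all of them suppressors of cytokine signalling. Of the 3, 1 fell and 2 did not pass, beside 3.06% of all genes past the threshold. All 3 were at an unadjusted p under 0.05 in limma, beside 18.9% of all genes. SOCS3, which binds activated receptors and limits their signal, was at 8.82, 8.91 and 8.97 in exposed cells, against 9.34, 9.23 and 9.32 in unexposed cells. The groups did not overlap, and the difference was -0.39 (SE 0.06, limma adjusted p = 0.0312). SOCS2 (-0.53) and SOCS1 (0.43) had differences of opposite sign, with limma adjusted p of 0.132 and 0.147.

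Of the receptor adaptors 9 of 11 were measured and 0 passed by limma. At an unadjusted p under 0.05 there was 1, SH2B1 at -0.16, beside 18.9% of all genes. IRS1 was at 0.09 and IRS2 at -0.05, while IRS4, GRB10 and SHC1 were at -0.18, -0.09 and 0.06. In the PI3K-AKT-mTOR arm 13 of 26 were measured and 0 passed by limma. Beside 18.9% of all genes, 2 of the 13 were at an unadjusted p under 0.05. These were the AKT phosphatase PHLPP2 (-0.34, limma adjusted p = 0.0834) and the mTOR inhibitor TSC1 (0.27, limma adjusted p = 0.121). TSC2 was at -0.17, AKT1 at -0.13 and MTOR at -0.05, INPPL1 was at 0.04, and 10 of the 13 had negative differences, beside 49.3% of all genes. In the RAS-MAPK arm 6 of 11 were measured and 0 passed by limma. The kinase MAP2K2 (0.41) and HRAS (-0.23) were the 2 at an unadjusted p under 0.05, beside 18.9% of all genes. The exchange factor SOS2 was at 0.11 and the kinase MAP2K1 at -0.12.

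FOXO transcription factors act at the end of the PI3K-AKT arm, and IGFBP1 is among their known targets in liver. Of the FOXO factors and their other target genes 13 of 20 were measured. Of the 13, 2 rose and 11 did not pass, beside 3.06% of all genes past the threshold. At an unadjusted p under 0.05 in limma there were 5 of the 13, beside 18.9% of all genes. FBXO32, a ubiquitin ligase subunit known from muscle wasting, was at 8.82, 8.82 and 8.88 in exposed cells, against 8.30, 8.25 and 8.30 in unexposed cells. These groups lay far apart for their spread. The difference was 0.56 (SE 0.06, 1.47-fold, limma adjusted p = 0.0260). FBXO32 had rank 4 of all genes by p, and rank 14717 of 14884 from the lowest difference. BCL6, a transcriptional repressor, was at 8.86, 8.96 and 8.65 in exposed cells, against 8.45, 8.32 and 8.40 in unexposed cells. Its difference was 0.43 (SE 0.09, limma adjusted p = 0.0469). The list's median was 0.18, and 11 of 13 had positive differences, beside 50.7% of all genes. KLF6 (0.37) and SESN3 (0.52) were among the 11 and did not pass. FOXO1 and FOXO3 themselves were at 0.01 and -0.0090, and PCK1, a dim liver gene, was at -0.25. IGFBP1, with -0.85, had the opposite sign to the 2 that rose.

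Among other transcription factors known to act on the IGFBP1 gene, 7 of 12 were measured. Of the 7, 1 rose and 6 did not pass, beside 3.06% of all genes past the threshold. At an unadjusted p under 0.05 in limma there were 4 of the 7, beside 18.9% of all genes. USF1, which binds E-boxes, was at 6.89, 6.84 and 6.90 in exposed cells, against 6.51, 6.56 and 6.51 in unexposed cells. The arrays of each group lay close together, and the difference was 0.35 (SE 0.07, limma adjusted p = 0.0438). ARNT, the partner of the hypoxia factors and of AHR, was at -0.25 (limma adjusted p = 0.0798) and AHR, a receptor for xenobiotics, at -0.19 (limma adjusted p = 0.0981). The hypoxia factor EPAS1 was at 0.12, NFE2L2 at 0.12 and ATF4 at -0.07. Of 7 measured hypoxia target genes 0 passed by limma and 2 had an unadjusted p under 0.05, beside 18.9% of all genes. The 2 were NDRG1 (0.43) and ANKRD37 (0.40), with LDHA at -0.09 and EGLN3 at -0.10. Of 7 measured ATF4 target genes 0 passed by limma and 0 had an unadjusted p under 0.05, beside the same 18.9%. SESN2 was at 0.14, DDIT4 at 0.46, ASNS at -0.18 and TRIB3 at -0.10.

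The 3 genes for IGF2 mRNA-binding proteins, which steady the IGF2 transcript, had positive differences and none passed by limma. IGF2BP2 at 0.23 was the 1 at an unadjusted p under 0.05, beside 18.9% of all genes. IGF2BP1 was at 0.26 and IGF2BP3 at 0.10. From the IGF2 locus and its imprinted neighbours 2 of 7 were measured, KCNQ1OT1 (-0.12) and the probe set named MIR483 (-0.06), which may read the precursor as well as the mature microRNA. In mannose 6-phosphate sorting 2 of 8 were measured. Of these, M6PR alone was at an unadjusted p under 0.05, beside 18.9% of all genes. M6PR, the smaller sorting receptor beside IGF2R, averaged 8.92 ± 0.05 over the exposed arrays and 8.75 ± 0.08 over the unexposed arrays (SD, n = 3 each), a difference of 0.17 that did not pass (limma adjusted p = 0.207). NAGPA, which uncovers the mannose 6-phosphate tag, was at 0.09.

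**Figure D5:**
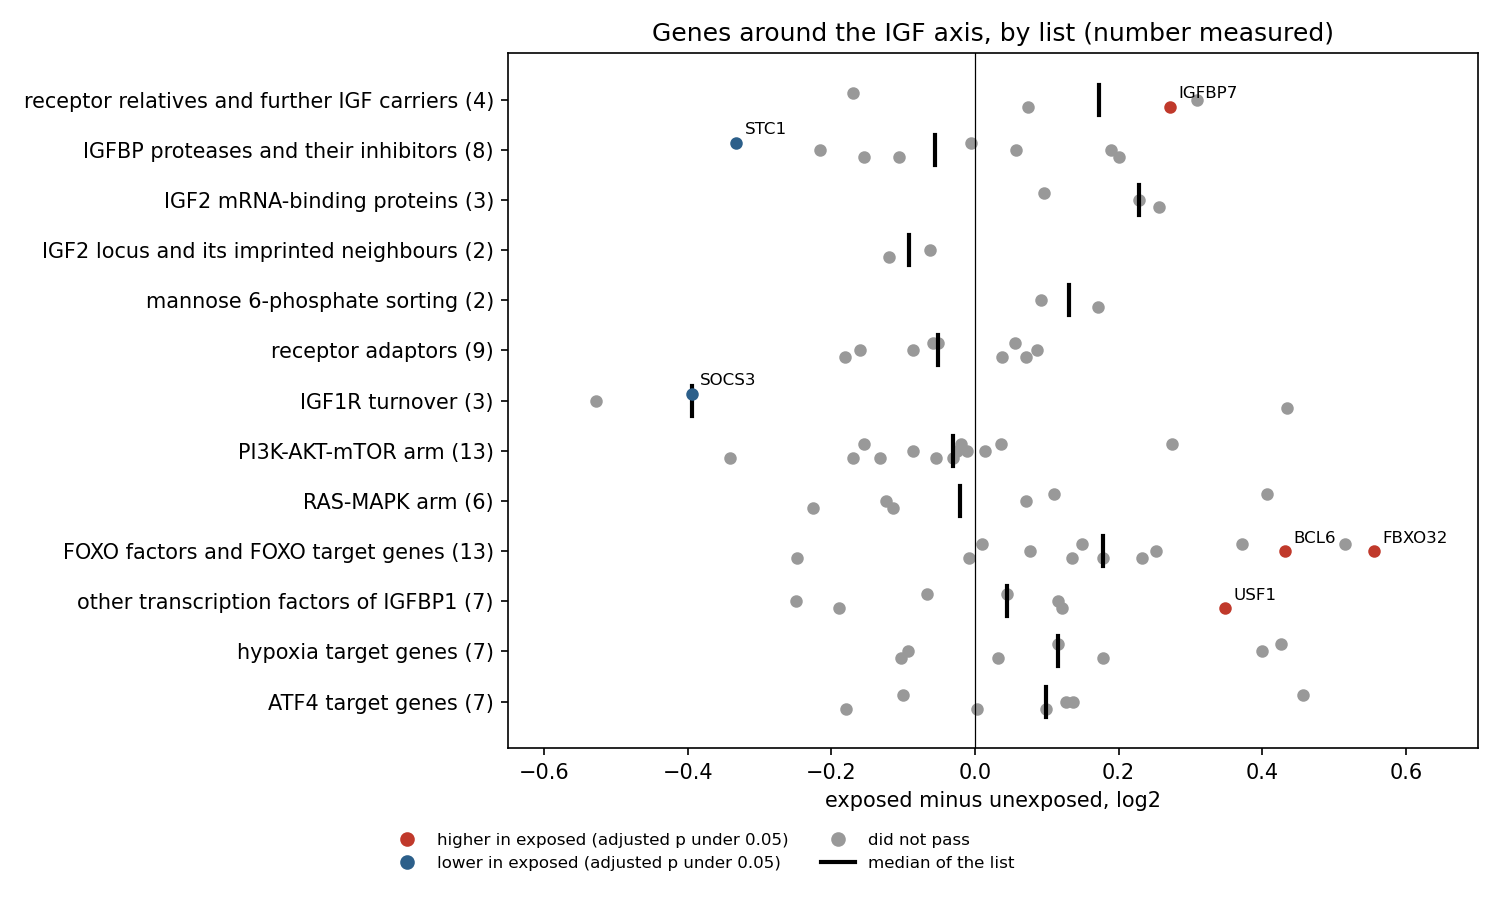
Difference, exposed minus unexposed (log2, horizontal axis), of the 84 measured pathway genes by list (number measured in brackets); points are genes, black bars list medians, and the 6 coloured and named genes passed the threshold. FBXO32 lies farthest to the right at 0.56, and the FOXO list has its median at 0.18.

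Over the 6 arrays, the genes whose pattern was most like that of IGFBP1 were LMNB1, COQ4, CHSY1, ASF1B and HGS, with Pearson correlations of 0.996 to 0.999 among 7278 genes above the median level. LMNB1 encodes a lamin of the nuclear envelope and ASF1B a histone chaperone. Their differences were -0.43 and -0.57, and none of the 5 passed (limma adjusted p from 0.0533 to 0.103). Most like IGF1R were NFE2L2, BEST1, STAC, KDM5B and KDM4B, with correlations of 0.989 to 0.998 and differences from 0.12 to 0.32 that did not pass. NFE2L2 encodes a factor of the oxidative stress response, and KDM5B and KDM4B are histone demethylases. With 6 arrays and 7278 genes such values describe these arrays alone.

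Of 10 glioma and mesenchymal markers 9 were measured, and 7 stood above the array medians on every array. So did 3 of the 3 measured neuron markers, 5 of 6 epithelial and liver, 1 of 4 endothelial and 1 of 2 leukocyte markers. The bar therefore does not set glioma markers apart. It is low, since array medians run over all probe sets, most of them without a single gene symbol, while the median of gene means was 5.28. The matrix protein gene TNC averaged 11.7 ± 0.07 over exposed and 11.8 ± 0.10 over unexposed arrays, and VIM 10.5 ± 0.05 and 10.5 ± 0.04 (SD, n = 3 each), while SOX2 and S100B lay below the array medians and GFAP was at 5.21 ± 0.14 and 4.86 ± 0.07. None of the 9 glioma and mesenchymal markers passed. Among markers of other cell types, MAP2 rose by 0.91 (SE 0.12, limma adjusted p = 0.0287), while the other 2 measured of 6 neuron markers, SYP and SYT1, were at 0.04 and 0.02. The summed linear level of these 3 was 176 to 189 in exposed and 134 to 145 in unexposed cells. Linear means were 82.7 and 44.1 for MAP2, 57.1 and 55.4 for SYP and 41.2 and 40.6 for SYT1, in that order. Such sums weight each gene by the brightness of its probes and do not measure the share of a cell type. For 2 of 6 leukocyte markers the sum was 5018 to 5080 in exposed and 4774 to 4892 in unexposed cells. Nearly all of it was CD68. For 4 of 5 endothelial markers the sum was 73.1 to 84.2 and 64.8 to 84.9, in that order. For 6 of 7 epithelial and liver markers it was 301 to 320 and 275 to 292. None of these other markers passed. CD14, PECAM1, VWF, TIE1 and ALB lay below the array medians, and an array has no true 0. Their part in the IGFBP1 difference was not tested. Fewer cells with a transcript and less of it per cell cannot be told apart in bulk RNA.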

How the data were processed

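Total RNA of 3 exposed and 3 unexposed U-87 MG cultures was measured on 1-colour Affymetrix arrays. The deposited table gives 1 log2 value per probe set and array, made by the authors with RMA, per the submitters' processing notes, which list the programs Transcriptome Analysis Console 3.0 and Affymetrix Expression Console 3.0. Other settings were not given in sources used here. The range of the values, 0.46 to 13.8, fits a log2 scale. RMA makes array distributions alike, so a change in total RNA per cell would not show. There are no detection calls and no depth.

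Of 53617 probe sets, 16098 had 1 gene symbol in the platform annotation, and the other 37519 had no symbol or more than 1. A gene was counted as measured only where a probe set carried its symbol alone. Each of 14884 genes was its probe set with the highest mean over the 6 arrays. Differences were fitted in R 4.3.3 by the lmFit and eBayes functions of limma 3.58.1, two-sided, with a mean-variance trend and no covariate, and p-values were adjusted by Benjamini-Hochberg over genes at 0.05. The procedure was tested on simulated data. Promoter sequences are from RefSeq (GRCh38.p14), and the letters were searched on both strands. Figures were drawn with matplotlib 3.10.9.

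Named genes are the measured members, and in each pathway list those past the threshold and the 2 with the smallest p in each direction. INSRR, STC2, ADAM12, HTRA1, IGF2BP3, IRS2, GRB10, AKT1, MTOR, FOXO1, KLF6, SESN3, ATF4 and the cell markers were named after their values were seen. For likeness, the 5 genes with the highest correlation with IGFBP1 and with IGF1R were taken. The members and lists were chosen with earlier results of these data known. The sample titles give replicate numbers but no pairing. The correlations of same-numbered arrays' deviations from their group means over all probe sets were -0.0164, -0.0253 and 0.00964. With 3 arrays per group these values cannot exclude a pairing.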

Additional observations from a re-analysis of the deposited data

How the results depend on the processing

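With single arrays left out, the IGFBP1 difference ranged from -1.01 to -0.65, the number of IGF axis genes past the threshold from 0 to 1, that of pathway genes from 0 to 4 and that of all genes from 0 to 325, against 1, 6 and 456 with all arrays. IGFBP1 kept its sign in all 14 alternatives and its call in 6. Without exposed replicate 1 or 2, or unexposed replicate 2 or 3, 0 of all genes passed, so no call could be kept. With the replicate number as a block, the IGFBP1 difference was -0.85 (limma adjusted p = 0.129), and 0 members, 0 pathway genes and 0 of all genes passed, with 4, 19 and 2286 at an unadjusted p under 0.05. Here 0 of 3 exposed arrays correlated best with the unexposed array of their own number. Without a mean-variance trend the IGFBP1 difference was again -0.85 (limma adjusted p = 0.163) and these counts were 0, 0 and 0, with 4, 19 and 2220 at an unadjusted p under 0.05. Adjusted over all probe sets, the IGFBP1 difference of -0.85 had a limma adjusted p of 0.0652, and 0 members, 2 pathway genes and 162 of all genes passed, the larger number of tests being part of that setting. Over probe sets above the median level 753 genes passed, and 3 pathway genes did when arrays were centred on ribosomal protein genes.

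That centring moved the median difference of all genes to 0.104 and the share of higher genes among those called to 62.6%, in place of 45.6%. Signs turned in it for IGF1 (0.0977) and IGFBP4 (0.0490), both below or at that shift. IGF1 also turned without exposed replicate 1 (0.0640), unexposed replicate 1 (0.0315) and unexposed replicate 2 (0.0071), with values from -0.0723 to 0.0640 over single arrays left out. IGF1R, IGF2R, IGFBP3, IGFBP5 and IGFBP6 kept their sign and stayed short of the threshold in every alternative run. For these genes too the sign could not turn where the fitted difference was left unchanged. The cause of the lost calls was not tested. IGF1 lay below the array medians, which limits what its signal shows.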
